A study of Mus musculus with 14 samples.

Results

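The Cyp2b cytochrome P450 genes of the mouse lie together on chromosome 7, and their chromatin accessibility was examined here in livers lacking matrin-3, a protein of the nuclear matrix that contacts RNA as well as DNA. The genes are Cyp2b10, Cyp2b13, Cyp2b9, Cyp2b23 and Cyp2b19, in the order of their positions, and they span 875 kb. ATAC-seq, in which a transposase cuts and tags open DNA, had been counted by the authors in intervals of 501 bp. An interval belonged to a Cyp2b gene when its midpoint lay inside the gene, or otherwise when that gene was the nearest protein-coding gene within 50 kb. By this rule 128 of 105801 intervals belonged to the cluster in the table of the high-fat diet (HFD), and 79 of 88203 in the chow table. The genes were picked for their difference between knockout and floxed livers in both diets, in these same libraries, so their genotype values and the contrast between diets are descriptions. Counts of Cyp2b intervals called by a fit over all intervals are printed with the share of all intervals called, and they support nothing.

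The groups were HFD LKO with 4 livers, HFD flox with 4, chow LKO with 3 and chow flox with 3. LKO mice carried the floxed matrin-3 gene and an Albumin-Cre transgene, whose promoter drives the recombinase in hepatocytes and is also active in the progenitors they share with biliary cells. The flox animals were littermates with the floxed gene, all mice were female, and nuclei came from 50 mg of frozen liver. Feeding of chow or of a diet with 60 kcal% fat began at 7 weeks of age and lasted 16 weeks. A fast of 12 h before collection is described for the HFD mice, and the feeding state of the chow mice was not given in the sources used here. Chow columns name only a genotype and a number, so chow libraries are numbered by column.

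Cyp2b enzymes are monooxygenases of the endoplasmic reticulum that oxidise drugs, other foreign compounds and steroids. In mouse liver Cyp2b10 is the classical target of CAR (Nr1i3), the nuclear receptor through which phenobarbital acts, and it also responds to PXR (Nr1i2). Cyp2b9 and Cyp2b13 are known as female-predominant liver genes under the control of the pattern of growth hormone secretion. Cyp2b19 is known from keratinocytes of the skin, and Cyp2b23 is a further member of the mouse subfamily.

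In mm10 coordinates, Cyp2b10 occupies chr7:25897658-25926624, Cyp2b13 chr7:26061388-26096197, Cyp2b9 chr7:26173350-26210661 and Cyp2b19 chr7:26757142-26772630, all on the plus strand. Cyp2b23 lies on the minus strand at chr7:26665227-26686430. Cyp2b13 and Cyp2b9 are neighbours 77.2 kb apart, Cyp2b10 lies 135 kb before Cyp2b13, and 455 kb separate Cyp2b9 from Cyp2b23. The RefSeq promoter windows (build GRCm38.p6, 250 bases before to 50 bases after each annotated start) are shown first for Cyp2b13 and Cyp2b9, because these genes held most of the intervals and have almost the same start region. The windows lie at chr7:26061245-26061544 and chr7:26173159-26173458 on the plus strand. They are identical at 298 of 300 bases, and capitals mark the differing bases.
Cyp2b13: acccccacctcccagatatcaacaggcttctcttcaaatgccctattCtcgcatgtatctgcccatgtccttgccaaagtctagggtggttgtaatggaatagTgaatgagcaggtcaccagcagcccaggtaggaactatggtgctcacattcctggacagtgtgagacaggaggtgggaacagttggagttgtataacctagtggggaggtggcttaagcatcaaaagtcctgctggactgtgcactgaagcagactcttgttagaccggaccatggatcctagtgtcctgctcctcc
Cyp2b9: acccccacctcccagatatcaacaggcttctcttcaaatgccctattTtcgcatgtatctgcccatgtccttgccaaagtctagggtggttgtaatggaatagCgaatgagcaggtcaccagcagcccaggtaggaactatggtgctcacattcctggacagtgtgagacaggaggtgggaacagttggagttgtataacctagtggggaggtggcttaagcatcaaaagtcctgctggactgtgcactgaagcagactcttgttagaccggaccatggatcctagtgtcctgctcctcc
With positions counted from 1 at the 5′ end of the window and the Cyp2b13 base given first, the differences are C48T and T104C, which lie 203 and 147 bases before the start. Reads from such near-identical copies can be placed on either gene, and the treatment of reads with several matches was not stated in the labels or files. The split of signal between Cyp2b13 and Cyp2b9 is therefore uncertain wherever the copies agree.

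The other windows were less alike, at 71.7% identity between Cyp2b10 and either of the pair and between 59.8% and 69.0% for the remaining pairs of different sequence. Around the start the family shares a layout, which 120 bases of each promoter show (100 bases before the start and 20 after). Capitals mark matches to TTGNATAA, a C/EBP-like motif, and to CATNAAA, which resembles a TATA box.
Cyp2b10: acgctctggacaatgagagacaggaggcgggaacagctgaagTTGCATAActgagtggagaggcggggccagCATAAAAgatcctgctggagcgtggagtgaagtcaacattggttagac
Cyp2b13: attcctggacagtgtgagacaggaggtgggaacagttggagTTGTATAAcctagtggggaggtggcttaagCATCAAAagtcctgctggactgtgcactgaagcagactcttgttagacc
Cyp2b23: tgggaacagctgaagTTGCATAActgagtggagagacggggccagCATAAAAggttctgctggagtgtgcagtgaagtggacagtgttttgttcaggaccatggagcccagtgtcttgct
Cyp2b19: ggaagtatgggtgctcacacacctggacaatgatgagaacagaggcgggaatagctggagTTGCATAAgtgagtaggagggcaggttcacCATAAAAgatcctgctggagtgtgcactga
These stretches lie at chr7:25897558-25897677, chr7:26061395-26061514, chr7:26686411-26686530 (minus strand) and chr7:26757042-26757161, and the stretch of Cyp2b9 at chr7:26173309-26173428 has the same letters as that of Cyp2b13. Both patterns were written from these windows, with N where the Cyp2b genes differ, so their presence in all 5 is no finding. Searched on both strands, TTGNATAA was found in 2.81% of 32851 RefSeq promoter windows of the same length and CATNAAA in 13.2%. The general C/EBP pattern TTNCNNAA was found in all 5 windows and in 40.7% of all windows, at the TTGCATAA of Cyp2b10, Cyp2b23 and Cyp2b19 but 180 bases before the start in Cyp2b13 and Cyp2b9. Cyp2b10, Cyp2b23 and Cyp2b19 read TTGCATAA and CATAAAA, whereas Cyp2b13 and Cyp2b9 read TTGTATAA and CATCAAA. TTGNATAA began 58 bases before the start in Cyp2b10, 59 in Cyp2b13 and Cyp2b9, 85 in Cyp2b23 and 40 in Cyp2b19. The nuclear receptor half-site AGGTCA was found once in each window other than that of Cyp2b10 and in 16.3% of all windows, and the canonical TATAAA in none of the 5 and in 13.6%. These matches describe letters in a window and are not measured binding sites.

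The libraries held 7586621 to 10396084 reads in intervals on HFD and 15531451 to 34981046 on chow, and 4273 to 13765 of the HFD reads and 10625 to 29138 of the chow reads lay in Cyp2b intervals. Levels below are read counts scaled to the library's total in intervals (CPM), averaged over the intervals of a gene, and the log2 fold changes of a gene come from the sum of its counts. The 2 tables were made and scaled separately, so levels are not compared between diets. On the first principal component of all HFD intervals, which held 25.9% of the variance, the LKO livers scored -5.0, 10.4, 64.2 and 63.2 and the flox livers -49.2, -65.8, 17.9 and -35.6, so LKO 1 and flox 3 were the livers of each genotype nearest to the other. On chow the shallow libraries LKO 2 and flox 2 had the lowest scores (-39.1 and -81.0, against -3.3 to 53.9 in the others, with 42.4% of the variance). The 7 intervals of matrin-3 itself (Matr3) averaged 10.4 to 11.7 CPM in HFD LKO and 9.98 to 13.8 CPM in HFD flox livers (log2 fold change -0.14, SE 0.09, edgeR adjusted p = 0.659). On chow they averaged 11.9 to 12.6 CPM in LKO and 12.8 to 13.1 CPM in flox livers, without overlap (-0.09, SE 0.07, edgeR adjusted p = 0.735). The labels and files do not place the floxed exons among them, so they do not check the genotype labels.

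On HFD the cluster was less accessible in LKO livers, mainly at Cyp2b13 and to a smaller extent at Cyp2b9. Of the 128 intervals, 122 had a negative log2 fold change of LKO over flox, and their median was -0.63, against 50.6% negative and a median of -0.00387 over all intervals. In edgeR's quasi-likelihood test with Benjamini-Hochberg adjustment over all intervals, 32 Cyp2b intervals were called at 0.05, all lower in LKO, 26 of the 50 at Cyp2b13 and 6 of the 65 at Cyp2b9. These counts moved with single livers. At Cyp2b13 and Cyp2b9 they were 10 and 2 without LKO 3, 11 and 4 without LKO 4, 12 and 3 without flox 2, and 13 and 2 without flox 4, while Cyp2b9 had 10 without LKO 1 or without LKO 2. Over all HFD intervals 0.303% were called lower. Every LKO liver was below every flox liver at 29 Cyp2b intervals, 21 of Cyp2b13 and 8 of Cyp2b9, against 2.50% of all intervals. Nothing is read from these shares, because the members were chosen on this contrast. Liver is a mixture of cells, and fewer cells with an open site and less opening per cell cannot be told apart in these bulk libraries.

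Cyp2b13, one of the female-predominant genes, showed the larger difference. Its 50 intervals averaged 5.29, 5.35, 3.22 and 3.27 CPM in the HFD LKO livers, against 9.22, 10.1, 5.61 and 9.8 CPM in the HFD flox livers. All LKO values lay below all flox values, and the closest pair was LKO 2 and flox 3. The means were 4.28 ± 1.2 CPM in LKO and 8.68 ± 2.08 CPM in flox livers (SD, n = 4 each), and the gene sum was 2.03-fold lower in LKO (log2 fold change -1.02, SE 0.18). Within each genotype the livers with the fewest reads were low: LKO 3, LKO 4 and flox 3 had 7586621, 7918176 and 7804243 reads and the lowest Cyp2b13 levels of their genotypes. The part of depth in the difference was not tested. With 1 liver left out the log2 fold change of Cyp2b13 lay between -1.18 (without flox 3) and -0.90 (without LKO 3), and it was -1.29 without LKO 1 and flox 3 together, a pair chosen after seeing the data.

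**Figure D1:**
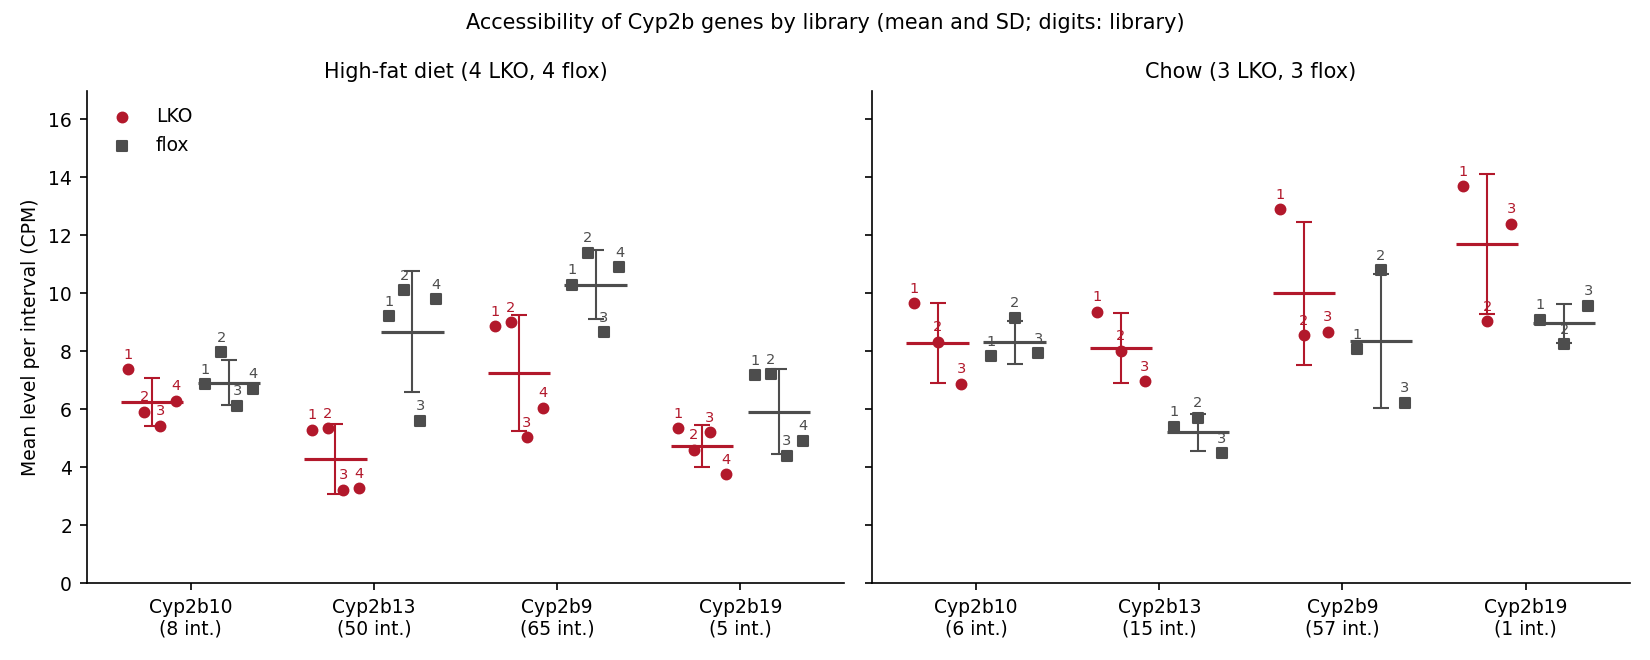
Mean accessibility of each Cyp2b gene with intervals, in CPM per 501-bp interval on the y axis, for HFD (left) and chow (right); points are single livers numbered by library, bars are means with SD, and the number of intervals stands under each name. On HFD the Cyp2b13 values of the 4 LKO livers (3.22 to 5.35 CPM) all sit below those of the 4 flox livers (5.61 to 10.1 CPM), while on chow its 3 LKO values (6.97 to 9.37 CPM) sit above the flox values (4.48 to 5.71 CPM).

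The lower values at Cyp2b13 ran along the gene from its first interval, 5.68 kb inside it, and beyond its end. The gene before that interval was not measured. Within Cyp2b13 the differences were smallest at 21.34 kb (-0.42) and 27.26 kb (-0.25) from the start. Of its intervals 49 of 50 had a negative log2 fold change, with a median of -1.15 and a range of -1.82 to 0.06. The interval nearest to the start (chr7:26066929-26067429, 5.68 kb inside the gene) had 5.47, 3.64, 3.66 and 2.4 CPM in LKO and 6.63, 10.8, 9.42 and 10.7 CPM in flox livers (log2 fold change -1.3, SE 0.24). The groups did not overlap there. The most accessible interval (chr7:26109012-26109512, downstream of the gene, 47.8 kb from its start) averaged 7.28 ± 4.01 CPM in LKO and 16.3 ± 5.11 CPM in flox livers (-1.15, SE 0.26), and here flox 3 at 9.55 CPM lay below LKO 1 and LKO 2 at 10.6 and 10.8 CPM. The lowest log2 fold change, -1.82 (SE 0.37), belonged to chr7:26107186-26107686, with 3.0, 2.98, 0.914 and 1.52 CPM in LKO and 11.7, 9.75, 2.01 and 6.8 CPM in flox livers, again with flox 3 inside the LKO range. The interval with the highest value, 0.06 (SE 0.32), was the most distant, 73.2 kb from the start, at 3.03 ± 0.426 CPM in LKO and 2.88 ± 0.988 CPM in flox livers. In bins of 10 kb the median log2 fold change lay between -0.86 and -1.3 in every bin from the start to 60 kb. The first 10 kb, measured only from 5.68 kb on, averaged 3.63, 3.75, 2.64 and 1.99 CPM in LKO and 6.16, 7.74, 5.7 and 9.89 CPM in flox livers. The bin from 30 to 40 kb, which holds the end of the gene, averaged 4.32, 3.88, 1.96 and 2.01 CPM in LKO and 9.42, 9.66, 3.71 and 7.05 CPM in flox livers. Every LKO liver was below every flox liver in the first of these bins, and in the other flox 3 lay within the LKO range. No interval covered the promoter window of Cyp2b13 in either table, whereas 42.9% of all promoter windows lay under an interval on HFD and 41.5% on chow. That window matches the Cyp2b9 window at 298 of 300 bases, so reads there can be placed on either copy. The reads of the Cyp2b9 promoter interval are uncertain in the same way. The part of read placement in the missing Cyp2b13 interval was not tested.

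Cyp2b9, the female-predominant neighbour, had the highest level of the 4 genes with intervals on HFD and a smaller difference. Its 65 intervals averaged 8.87, 9.0, 5.04 and 6.06 CPM in LKO and 10.3, 11.4, 8.66 and 10.9 CPM in flox livers. LKO 1 and LKO 2 lay just above flox 3, so the genotypes overlapped, while LKO 3 and LKO 4 lay below every flox liver. The means were 7.24 ± 2.0 CPM in LKO and 10.3 ± 1.18 CPM in flox livers, and the log2 fold change of the gene sum was -0.51 (SE 0.15). It was -0.37 without LKO 3 and -0.69 without LKO 1 and flox 3. The log2 fold change was negative at 63 of 65 intervals, with a median of -0.47 and a range of -1.11 to 0.15.

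The start of Cyp2b9 differed less than its body. The interval over the promoter (chr7:26173078-26173578) had 21.9, 18.8, 18.9 and 16.2 CPM in LKO and 25.4, 25.9, 15.8 and 26.3 CPM in flox livers (-0.30, SE 0.15). The flox livers other than flox 3 exceeded every LKO liver, and flox 3 was the lowest of all 8. At chr7:26175687-26176187, 2.53 kb inside the gene, LKO livers had 4.94, 5.52, 2.22 and 5.05 CPM and flox livers 9.66, 10, 7.16 and 11.8 CPM. This was the lowest log2 fold change of the gene (-1.11, SE 0.23), and the groups did not overlap. The most accessible interval, chr7:26223266-26223766 at 50.1 kb from the start and beyond the end of the gene, had 19.9, 15.6, 13.1 and 14.6 CPM in LKO and 24.3, 25.5, 34.4 and 32.7 CPM in flox livers (-0.88, SE 0.15). Every LKO liver was below every flox liver there, and flox 3 had the highest value instead of the lowest. An interval 4.08 kb before the start had the highest log2 fold change, 0.15 (SE 0.20). Upstream, 5 intervals lay in the pseudogene Cyp2b26-ps, with log2 fold changes from -0.47 to -0.15, and 1 interval assigned to Cyp2b13 lay in Cyp2b27-ps (-0.16, SE 0.20).

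By bins of 10 kb, the median log2 fold change along Cyp2b9 was -0.08 just before the start, from only 2 intervals (0.15 and -0.30). It was -0.75 over the first 10 kb, -0.67, -0.49 and -0.34 over the next 3 bins, and -0.46 and -0.43 from 40 to 60 kb. Between 50 and 60 kb the intervals averaged 14, 10.3, 9.21 and 9.04 CPM in LKO and 14.1, 15.1, 15.7 and 16.0 CPM in flox livers, a bin in which the flox livers differed 1.13-fold between the highest and the lowest. From the start to 60 kb LKO 3 and LKO 4 were the lowest livers in every bin.

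**Figure D2:**
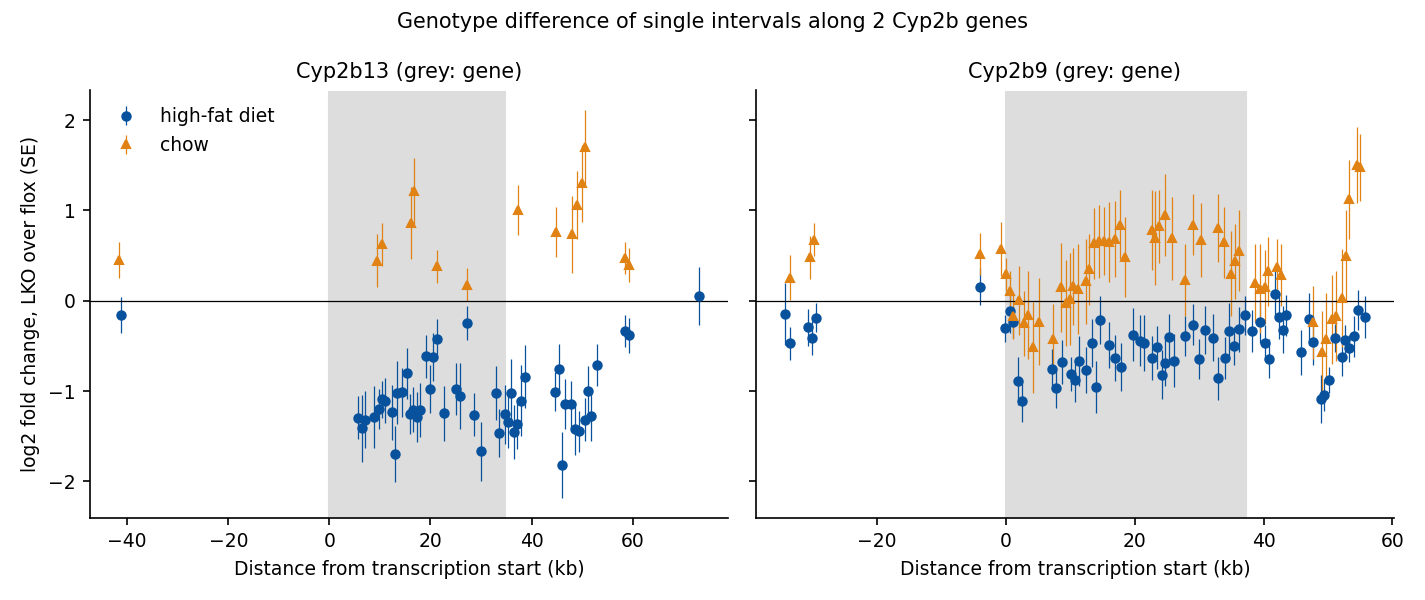
Log2 fold change of LKO over flox (y axis, with SE) of single intervals against distance from the transcription start in kb (x axis) at Cyp2b13 (left) and Cyp2b9 (right); grey marks the gene, circles HFD and triangles chow. On HFD 49 of 50 Cyp2b13 and 63 of 65 Cyp2b9 intervals lie below 0, and on chow all 15 Cyp2b13 and 45 of 57 Cyp2b9 intervals lie above it.

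Cyp2b10, the phenobarbital-inducible gene, showed little difference between genotypes on HFD. Its 8 intervals averaged 7.39, 5.91, 5.44 and 6.3 CPM in LKO and 6.86, 7.97, 6.13 and 6.71 CPM in flox livers. The groups overlapped, with means of 6.26 ± 0.832 and 6.92 ± 0.772 CPM and a log2 fold change of -0.15 (SE 0.10). edgeR called none of the 8 intervals, with 1 at an unadjusted p under 0.05, and DESeq2 and limma called none. The most accessible interval, chr7:25893076-25893576 at 4.33 kb before the start, averaged 14.7 ± 2.44 CPM in LKO and 14.7 ± 1.62 CPM in flox livers. The interval over the promoter (chr7:25897338-25897838) averaged 5.52 ± 0.822 CPM in LKO and 5.4 ± 2.12 CPM in flox livers (0.02, SE 0.26). The region where the phenobarbital-responsive enhancer of Cyp2b10 is known to lie, upstream of the promoter, was covered by chr7:25895136-25895636, an interval singled out after its values were seen. It had 6.331, 3.861, 3.917 and 3.283 CPM in LKO and 5.17, 6.924, 3.644 and 4.378 CPM in flox livers (-0.21, SE 0.26), with overlap. An interval inside the gene, 22 kb from the start, had the lowest log2 fold change (-0.50, SE 0.22), with 5.89 ± 2.06 CPM in LKO and 8.37 ± 0.746 CPM in flox livers.

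Cyp2b19, the keratinocyte gene, had no interval inside it, and its 5 HFD intervals lay 1 before and 4 beyond the gene. They averaged 5.34, 4.61, 5.2 and 3.76 CPM in LKO and 7.17, 7.22, 4.4 and 4.91 CPM in flox livers, with overlap between the groups (-0.34, SE 0.16). The strongest of them, chr7:26783232-26783732 at 26.3 kb from the start, averaged 8.09 ± 1.59 CPM in LKO and 12.1 ± 3.89 CPM in flox livers (-0.58, SE 0.21). edgeR called none of the 5, with 1 at an unadjusted p under 0.05, and DESeq2 and limma called none. Cyp2b23 had no interval by the rule in either table, and the nearest interval to its start was 52709 bp away on HFD and 97031 bp away on chow. Per interval, the HFD flox livers ranked Cyp2b9 (10.3 CPM) over Cyp2b13 (8.68), Cyp2b10 (6.92) and Cyp2b19 (5.92), and each step was smaller than the larger SD of its neighbours. In HFD LKO livers Cyp2b9 (7.24 CPM) and Cyp2b10 (6.26) stood above Cyp2b19 (4.73) and Cyp2b13 (4.28), and the only step beyond the SDs of its neighbours was that between Cyp2b10 and Cyp2b19. These levels cover called intervals only.

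On chow the values ran the other way at Cyp2b13. Its 15 intervals averaged 9.37, 8.02 and 6.97 CPM in LKO and 5.4, 5.71 and 4.48 CPM in flox livers. Every LKO liver was above every flox liver, with means of 8.12 ± 1.2 and 5.2 ± 0.641 CPM (SD, n = 3 each) and a 1.55-fold higher gene sum (log2 fold change 0.63, SE 0.14). All 15 intervals had a positive log2 fold change, from 0.18 to 1.70. The highest belonged to chr7:26111888-26112388, 50.6 kb from the start, with 10.6, 8.28 and 3.39 CPM in LKO and 1.42, 2.39 and 3.0 CPM in flox livers (SE 0.41). There LKO 3 was close to the flox livers and LKO 1 and LKO 2 stood well above them. In the bin from 10 to 20 kb, where the LKO livers had 8.57, 8.03 and 6.75 CPM and the flox livers 5.32, 5.27 and 2.2 CPM, the groups were apart as well. The most accessible interval, chr7:26082502-26083002 inside the gene, averaged 14.4 ± 2.96 CPM in LKO and 11.1 ± 0.995 CPM in flox livers (0.38, SE 0.18), with overlap.

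Cyp2b9 did not separate the genotypes on chow. Its 57 intervals averaged 12.9, 8.55 and 8.67 CPM in LKO and 8.07, 10.8 and 6.22 CPM in flox livers (0.25, SE 0.22). The log2 fold change rested on single livers, at 0.02 without LKO 1, 0.07 without flox 3 and 0.46 without flox 2. It was positive at 45 of 57 intervals and ranged from -0.56 to 1.51. The promoter interval (chr7:26173086-26173586) had 26.7, 19.5 and 23.7 CPM in LKO and 23.5, 18.5 and 15.3 CPM in flox livers (0.29, SE 0.18), and the groups overlapped. The most accessible interval, chr7:26222916-26223416 beyond the end of the gene, had 29.6, 17.6 and 8.63 CPM in LKO and 9.22, 21.3 and 43.9 CPM in flox livers (-0.42, SE 0.50). At the downstream interval both the highest and nearly the lowest value were flox livers, so the spread within a genotype exceeded the difference between genotypes. An interval in the pseudogene Cyp2b26-ps (chr7:26143406-26143906), also chosen after its values were seen, had 30.31, 20.2 and 25.55 CPM in LKO and 17.99, 16.67 and 13.13 CPM in flox livers (0.68, SE 0.18), all LKO above all flox.

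The chow livers differed among themselves in the shape of the profile along Cyp2b9. Flox 3 had 3.67, 2.21, 2.15 and 3.41 CPM in the 4 bins from the start to 40 kb, and 13.6 and 14.1 CPM in the bins from 40 to 60 kb. Flox 1 ran the other way, at 14 CPM in the first 10 kb and 3.63 CPM between 50 and 60 kb. LKO 3 was also low at the far end, at 4.93 CPM between 50 and 60 kb, where LKO 1 had 16.5 CPM. In the 4 bins up to 40 kb the highest chow LKO liver had 1.2 to 1.83 times the level of the lowest and the highest chow flox liver 3.8 to 5.19 times. In the bins from 40 to 60 kb these ratios were 2.31 and 3.36 for LKO and 2.64 and 3.9 for flox livers. On HFD the ratio was 1.52 to 2.68 among LKO and 1.13 to 1.65 among flox livers from the start to 60 kb. LKO livers were the more spread in each of these HFD bins and flox livers in each of the chow bins.

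**Figure D3:**
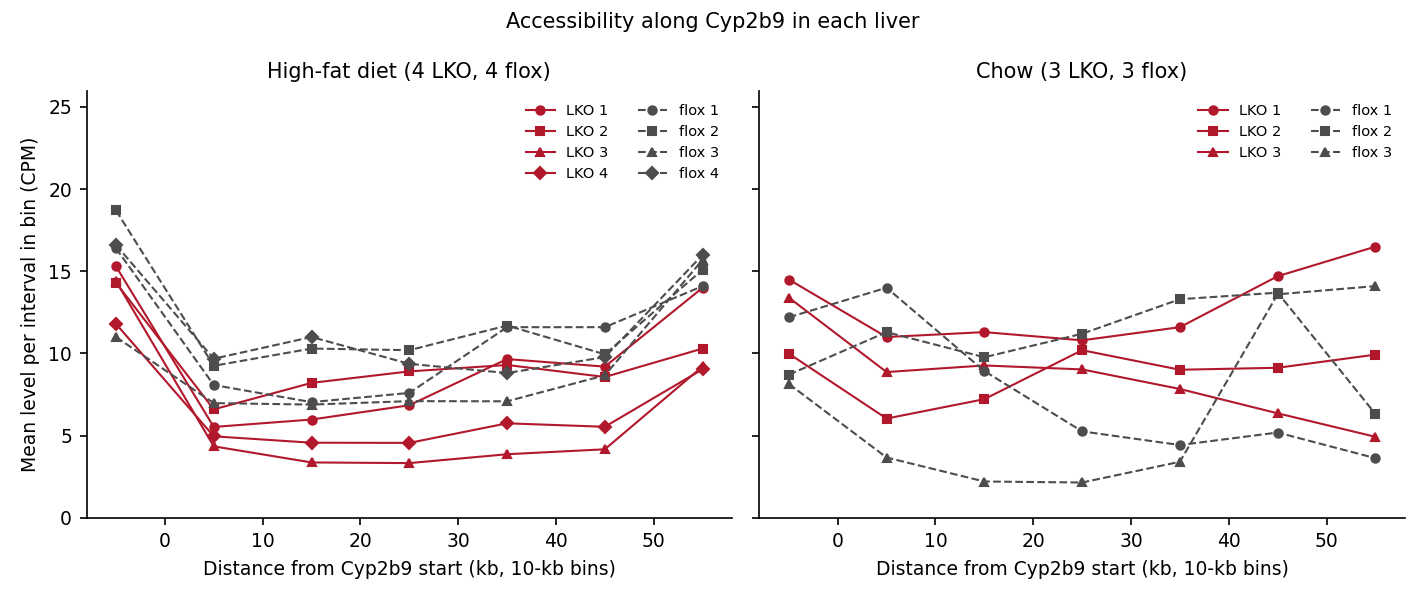
Accessibility along Cyp2b9 in each liver, as mean CPM per interval (y axis) in 10-kb bins of distance from the start (x axis), for HFD (left) and chow (right); solid lines are LKO and dashed lines flox livers. The chow flox livers cross one another, with flox 3 at 2.15 to 3.67 CPM up to 40 kb and 14.1 CPM at 50 to 60 kb, while the HFD flox livers run close together.

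Cyp2b10 and Cyp2b19 overlapped between the genotypes on chow. Cyp2b10 had 9.66, 8.33 and 6.88 CPM in LKO and 7.83, 9.16 and 7.94 CPM in flox livers over 6 intervals, with overlap and a log2 fold change of -0.02 (SE 0.13). The interval over its known enhancer region (chr7:25895173-25895673) had 7.011, 4.955 and 6.129 CPM in LKO and 7.008, 5.69 and 6.581 CPM in flox livers (-0.09, SE 0.20). Its promoter interval averaged 9.12 ± 1.24 CPM in LKO and 7.96 ± 0.89 CPM in flox livers (0.19, SE 0.18), and its strongest interval, 4.31 kb before the start, 15.3 ± 2.72 CPM in LKO and 18.8 ± 3.88 CPM in flox livers (-0.30, SE 0.19). The 1 chow interval of Cyp2b19 had 13.7, 9.03 and 12.4 CPM in LKO and 9.09, 8.25 and 9.58 CPM in flox livers (0.39, SE 0.19), and the groups overlapped. edgeR called none of the 79 chow intervals, against 0.0227% of all chow intervals in either direction. At an unadjusted p under 0.05 there were 15 of the 79, and the share of all chow intervals is not given. limma called 3 of the 79, beside 677 of 88203 chow intervals. DESeq2 called 2, and its larger total over all chow intervals stands in the last section. Every LKO liver was above every flox liver at 11 of the 79, 7 of Cyp2b13 and 4 of Cyp2b9, against 5.63% of all chow intervals. Nothing is read from these counts for members chosen on this contrast. Without the shallow libraries LKO 2 and flox 2 the chow log2 fold change was 0.70 at Cyp2b13 and 0.56 at Cyp2b9.

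The intervals carry in their names the genotype in which the authors called them, and this moved with the direction. Over the whole HFD table the median log2 fold change was 0.13 for intervals named for the knockout. It was -0.13 for those named for the floxed (WT) calls, and on chow the medians were 0.13 and -0.15. On HFD 39488 of 53410 WT-named and 14073 of 52391 knockout-named intervals were negative. On chow 34201 of 44192 WT-named intervals were negative and 33612 of 44011 knockout-named ones positive. The knockout gave its name to 49.5% of all HFD and 49.9% of all chow intervals. Of the Cyp2b intervals, 106 of 128 on HFD were named for WT and 57 of 79 on chow for the knockout. At Cyp2b13 on HFD 4 intervals were named for the knockout (median -0.63, 3 negative) and 46 for WT (median -1.18, 46 negative), while on chow all 15 were named for the knockout. At Cyp2b9 on HFD the 13 intervals named for the knockout were all negative (median -0.24), beside 52 named for WT (median -0.51). At Cyp2b9 on chow the 36 intervals named for the knockout were all positive (median 0.56), and 12 of the 21 named for WT were negative (median -0.16). The part of interval naming in the counts of direction was not tested.

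The genotype effects of both diets were set against each other at 55 Cyp2b intervals that overlapped by at least 50% between the tables, out of 73945 matched intervals. The HFD effect minus the chow effect was negative at 54 of the 55, with a median of -0.84. Over all matched intervals it was negative at 36080 of 73945, with a median of 0.01. The median was -1.69 at the 11 intervals of Cyp2b13, -0.84 at the 37 of Cyp2b9, -0.21 at the 6 of Cyp2b10 and -0.95 at the 1 of Cyp2b19. A negative effect on HFD together with a positive one on chow was found at 43 of the 55, among them all 11 of Cyp2b13, 30 of 37 of Cyp2b9 and 1 of 6 of Cyp2b10, against 25.2% of all matched intervals. edgeR called 5 of the 55, all lower and all at Cyp2b13, against 0.0487% of matched intervals called lower. Nothing is read from these counts of direction and of calls, because the genes were chosen on these contrasts.

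The 5 intervals were spread along Cyp2b13, and each had a negative effect on HFD and a positive one on chow. At chr7:26071625-26072125 the HFD log2 fold change was -1.09 and that on chow 0.62, at chr7:26077885-26078385 they were -1.21 and 1.21, and at chr7:26098405-26098905 they were -1.36 and 1.0. At chr7:26105858-26106358 the effects were -1.01 on HFD and 0.76 on chow, and at chr7:26111916-26112416 they were -1.32 and 1.70. This last site overlaps the chow interval with the highest chow value of the gene. The count was 2 at an overlap of at least 80%. With 1 liver left out it was 1 without HFD flox 4 or without chow LKO 1, 2 without HFD LKO 3, HFD LKO 4 or HFD flox 2, 3 without HFD LKO 1, HFD flox 1 or chow LKO 2, and 14 without chow flox 2. Diet and the table of counts change together, so their parts in the contrast cannot be told apart, and whether feeding state changed with them was not given.

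**Figure D4:**
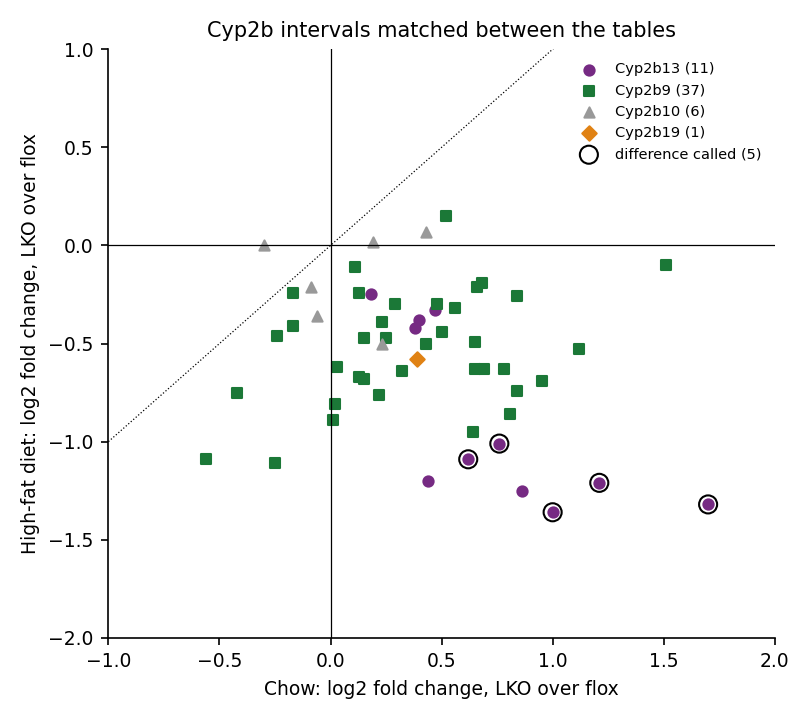
Log2 fold change of LKO over flox on HFD (y axis) against that on chow (x axis) at 55 Cyp2b intervals matched between the tables, by gene; the dotted line marks equal effects and open rings the 5 intervals whose difference between diets was called. All 11 Cyp2b13 intervals lie at the lower right, with HFD effects below 0 and chow effects above 0.

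Neighbouring genes within 500 kb of the cluster, taken by position alone, served as the local comparison. Cyp2a5, Cyp2a4 and Cyp2a22 among them also stand in the gene lists below and count in both places. Those lists were drawn up with earlier results of these libraries known, so the comparison is not independent for these genes. On HFD 30 neighbours had intervals, and edgeR on gene sums called 2, both lower, beside 0.166% of 16280 genes. Both belong to the Cyp2a family, which lies in the same array. Cyp2a5, the coumarin hydroxylase, had 6.31, 4.39, 4.15 and 3.82 CPM in LKO and 10.1, 10.8, 5.39 and 7.21 CPM in flox livers (-0.85, SE 0.18, edgeR adjusted p = 0.0448). LKO 1 lay above flox 3, and the other LKO livers lay below all flox livers. Cyp2a12, a steroid hydroxylase, had 5.27, 5.44, 5.52 and 5.12 CPM in LKO and 7.76, 8.71, 5.78 and 7.2 CPM in flox livers (-0.47, SE 0.10, edgeR adjusted p = 0.0487), without overlap. Of the fits without 1 liver, the call of Cyp2a5 held only without LKO 1 or without flox 3 and that of Cyp2a12 only without flox 3, and the highest adjusted p-values, without LKO 4, were 0.195 and 0.189.

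All 7 Cyp2 neighbours with intervals had a negative log2 fold change on HFD, with a median of -0.49, against 16 of 23 and -0.03 for the other neighbours. Cyp2a4, a female-predominant gene that lies between Cyp2b9 and Cyp2b23, had -0.50 (edgeR adjusted p = 0.133), Cyp2a22 -0.49 (0.068) and Cyp2g1 -0.57 (0.445), while Cyp2f2 and Cyp2s1 had -0.16 (0.838) and -0.07 (0.859). Cyp2a4 and Cyp2a5 are near-identical, so reads between them are uncertain in the same way as for Cyp2b13 and Cyp2b9. On chow the same 7 genes were all positive, from 0.01 to 0.41 with a median of 0.09, against 10 of 24 and -0.02 for the other neighbours. None of the 7 reached an unadjusted p under 0.05 in edgeR. Cyp2s1, Cyp2g1 and Cyp2a22 had 0.01 each, with SE 0.09, 0.21 and 0.12. Of 15932 chow gene sums edgeR called 0% (no gene in either direction), with 1047 at an unadjusted p under 0.05, 38 called by DESeq2 and 1 by limma. Whether Cyp2 neighbours and other neighbours differ was not tested.

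**Figure D5:**
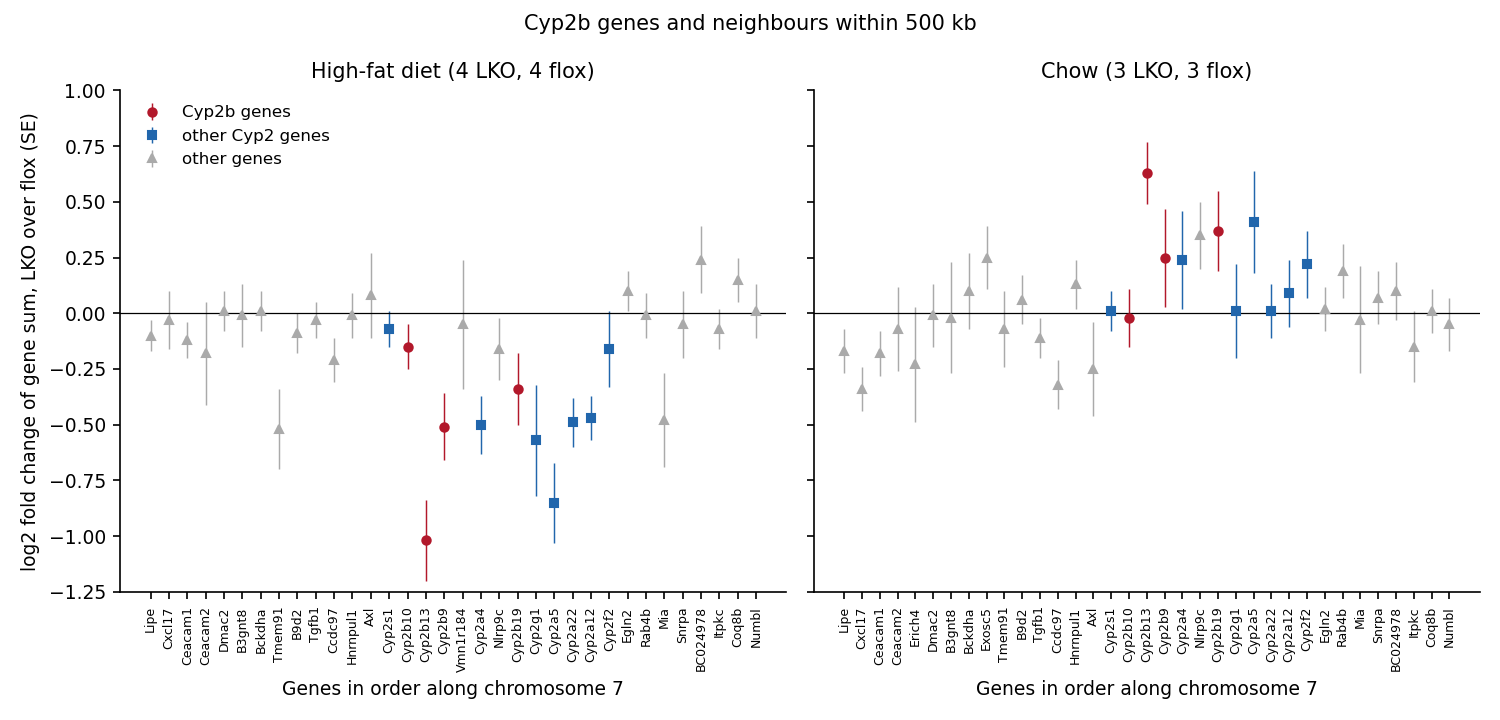
Log2 fold change of gene sums, LKO over flox, with SE (y axis), for the Cyp2b genes (circles), other Cyp2 genes (squares) and other genes (triangles) in their order along chromosome 7 within 500 kb of the cluster, on HFD (left) and chow (right). On HFD Cyp2b13 (-1.02) and Cyp2a5 (-0.85) lie lowest and the non-Cyp2 genes lie between -0.52 and 0.24.

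The receptors and partners that act on Cyp2b genes were measured through their own intervals. Of 20 measured regulators, edgeR called 1 on HFD, as higher in LKO, beside 0.178% of all genes. It was Egfr, the receptor of epidermal growth factor, through which phenobarbital is known to activate CAR indirectly. Egfr had 6.73, 10.2, 7.59 and 8.46 CPM per interval in LKO and 4.64, 4.13, 4.66 and 4.24 CPM in flox livers (0.90, SE 0.12, edgeR adjusted p = 0.00084), and all LKO livers were above all flox livers. On chow its value was -1.16 (SE 0.26, adjusted p = 0.718), with 3.21, 4.34 and 5.35 CPM in LKO and 11.8, 5.87 and 10.5 CPM in flox livers. Nr1i3, which encodes CAR, had 9.68, 9.64, 8.41 and 7.42 CPM in LKO and 14.9, 12.1, 8.85 and 12.0 CPM in flox livers on HFD (-0.45, SE 0.13, edgeR adjusted p = 0.174). Flox 3 again lay inside the LKO range. On chow Nr1i3 had 14.5, 10.1 and 14.4 CPM in LKO and 12.4, 6.89 and 8.12 CPM in flox livers (0.49, SE 0.22, adjusted p = 0.718). Nr1i2, which encodes PXR, had 0.00 on HFD (adjusted p = 0.996), Hnf4a, the hepatocyte nuclear receptor, 0.03 (0.966), and Por, the reductase that hands electrons to the P450 enzymes, 0.09 (0.887). The median of the regulators was -0.11 on HFD and -0.02 on chow, against -0.00108 and -0.00514 over all genes.

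Of 26 measured targets of CAR and PXR, edgeR called 2 lower in LKO livers on HFD, Sult2a1 and Cyp2a5, beside 0.166% of all genes, and 22 of the 26 had a negative log2 fold change, with a median of -0.28, beside 50.3% of all genes. On chow the median was 0.10, with 8 of 26 negative beside 51.3% of all genes. Sult2a1, a hydroxysteroid sulfotransferase, had 3.88, 4.81, 4.41 and 3.16 CPM in LKO and 7.6, 9.81, 7.34 and 8.53 CPM in HFD flox livers (-1.04, SE 0.13, edgeR adjusted p = 0.000761), without overlap, and 0.24 on chow (SE 0.14, adjusted p = 0.718). Cyp2c37 and Cyp2c55, which oxidise arachidonic acid, had -0.86 (SE 0.24, adjusted p = 0.161) and -0.74 (SE 0.18, 0.0929), and Cyp3a11, the main PXR target, -0.41 (SE 0.11, 0.113).

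Female-biased liver genes other than the Cyp2b members had a median of -0.32 on HFD, with 22 of 26 negative and 3 called lower, namely Sult2a1, Cyp3a41a and Cyp3a41b, beside the same 50.3% negative and 0.166% called lower among all genes. Cyp3a41a, a female-specific P450, had 4.7, 5.69, 4.93 and 4.67 CPM in LKO and 7.87, 7.73, 7.65 and 7.5 CPM in flox livers (-0.62, SE 0.08, edgeR adjusted p = 0.000761), a clear gap between the genotypes. Its close copy Cyp3a41b had -0.61 (SE 0.09, adjusted p = 0.00153), and reads between these copies are uncertain too. On chow Cyp3a41a had 8.39, 6.87 and 7.25 CPM in LKO and 9.4, 10.4 and 8.62 CPM in flox livers (-0.35, SE 0.11, adjusted p = 0.718), negative in both diets where Cyp2b13 was not. The chow median of the female-biased list was -0.06. Male-biased genes had a median of -0.06 on HFD, with 13 of 21 negative, and -0.16 on chow. Of the 21, edgeR called Egfr higher on HFD, beside 0.178% of all genes. C6 (0.56, edgeR adjusted p = 0.0612) and Slco1a1 (0.80, 0.11) were positive without a call. On HFD DESeq2 called 4 and limma 3 male-biased genes, and 6 and 5 female-biased ones, beside 124 and 82 of 16280 genes. These lists were drawn up with earlier results of these libraries known, and their calls are no independent evidence of a direction.

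Markers of liver cell types were measured to show what else moved between the groups. Hepatocyte markers had a median of -0.18 on HFD with 7 of 12 negative, beside 50.3% of all genes. Their summed levels were 4105 to 5868 CPM in LKO and 4588 to 7574 CPM in flox livers. Of the 12 markers, Ttr, which encodes transthyretin, was called lower (-0.79, SE 0.11, edgeR adjusted p = 0.00152), beside 0.166% of all genes. On chow the hepatocyte markers had a median of -0.42 with 11 of 12 negative, beside 51.3% of all genes. They summed to 6559 to 7476 CPM in LKO and 7040 to 9733 CPM in flox livers. Kupffer cell markers, of the resident macrophages, had a median of 0.20 on HFD with 8 of 9 positive, while 50.3% of all genes were negative. They summed to 160.0 to 177.6 CPM in LKO and 126.9 to 170.0 CPM in flox livers, and Timd4 had no interval. On chow their median was -0.19 with 6 of 7 negative, beside 51.3% of all genes. The chow medians were -0.13 for sinusoidal endothelium (8 of 10 negative), -0.11 for stellate cells (6 of 9), -0.04 for biliary cells (4 of 5) and -0.07 for lymphocytes (2 of 4). The summed levels of LKO and flox livers on HFD were 603.0 to 670.3 and 599.6 to 708.9 CPM for sinusoidal endothelium, 107.9 to 144.8 and 102.5 to 128.4 CPM for stellate cells, 165.0 to 174.8 and 166.1 to 184.1 CPM for biliary cells, and 61.48 to 66.47 and 58.1 to 72.25 CPM for lymphocytes. All of these ranges overlapped between genotypes. Pericentral hepatocyte genes, which mark the zone where CAR targets are mainly induced, had a median of -0.07 on HFD and 0.03 on chow. edgeR called none of the pericentral, Kupffer, sinusoidal, stellate, biliary and lymphocyte genes on HFD, and DESeq2 and limma called none of them. At an unadjusted p under 0.05 in edgeR there were 6 of 16 pericentral genes, 2 of 9 Kupffer genes and none of the others. Over all HFD genes 1627 of 16280 were at that level. The part of cell composition in the Cyp2b values was not tested.

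Across the 8 HFD livers, the genes whose summed accessibility on the log2 scale was most like that of Cyp2b13 and Cyp2b9 together, among 6338 genes with at least 5 intervals outside the neighbourhood, were Erc1 (Pearson r 0.985), Msra (0.982), Nr1h4 (0.977), Mup3 (0.975) and Alad (0.968), against a median r of 0.144. Nr1h4 encodes FXR, the bile acid receptor, and Mup3 a major urinary protein. After the mean of each genotype was subtracted, Rdh7 (0.986), Gas6 (0.983), Erc1 (0.978), Zcchc24 (0.974) and Marveld1 (0.974) were nearest, with a median of 0.207. All points share the libraries and their depth, so these values describe likeness over 8 livers. The genotype differences of these genes were small beside that of Cyp2b13, from -0.32 at Mup3 and Alad to -0.03 at Gas6 on the log2 scale.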

How the data were processed

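The authors deposited raw read counts of each interval in every library, in whole numbers, as 1 table per diet with mm10 coordinates per the labels. The submitters' processing notes name HOMER 4.11, MACS2 2.2.7.1, bedtools, Bowtie2 2.4.2 and Trim Galore 0.6.7 without roles. Treatment of duplicates, of reads with several matches and of the transposase offset, and any pooling before intervals were called, were not stated in the labels or files. Coordinates are 1-based.

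Intervals were assigned to RefSeq protein-coding genes (midpoint inside, otherwise nearest within 50 kb). Counts of each table were tested with edgeR 4.0.16 in R 4.3.3 (glmQLFTest, TMM scaling, filterByExpr, Benjamini-Hochberg adjustment over all features at 0.05), per interval and as sums per gene, LKO over flox, and over intervals matched between tables by at least 50% overlap for the HFD minus the chow effect. The filter removed no interval. CPM values divide by each library's scaled total in intervals. The scripts were tested on simulated counts. Alternatives were DESeq2 1.42.0, limma 3.58.1 (voom), other scalings, filters, assignment rules and overlaps, and leaving out livers.

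Each library has its own female number in the titles and was read as 1 mouse. The numbers of the HFD livers were not used as a pairing in the main fits. Members and gene lists were chosen with earlier results of these data known. In full are given, per gene and diet, the most accessible interval, the one nearest to the start and those with the lowest and highest log2 fold change, then Cyp2 or called neighbours within 500 kb, and called or best-known genes of each list. Promoters are RefSeq sequences of GRCm38.p6, matched for all 5 genes. Interval sequences were not used here.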

Additional observations from a re-analysis of the deposited data

Results flagged for a closer look

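At the Cyp2b9 promoter interval (chr7:26173078-26173578), the HFD flox 3 liver had 15.8 CPM while the other HFD flox livers had 25.4 to 26.3 CPM. The gap was 0.914 of the range of the group, above Dixon's critical value for 4 samples. It was the only such value among 36 groups of 4 examined, and chance alone gives about 5% of groups. The same liver was highest at 34.4 CPM in the strongest interval downstream of Cyp2b9.

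At 5 intervals of Cyp2b13 the difference in genotype effect between diets passed edgeR's threshold over all matched intervals. The genes had been chosen on the contrasts themselves, so these calls are no evidence of a difference and the values are descriptions. The HFD minus chow value was -1.69 (SE 0.31) at chr7:26071625-26072125, -2.40 (SE 0.47) at chr7:26077885-26078385, -2.35 (SE 0.47) at chr7:26098405-26098905, -1.74 (SE 0.37) at chr7:26105858-26106358 and -3.00 (SE 0.49) at chr7:26111916-26112416.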

How the results depend on the processing

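The median log2 fold changes of the Cyp2b intervals kept their sign under every alternative run. So did the HFD gene sums of Cyp2a5, Cyp2a12, Sult2a1, Cyp3a41a, Cyp3a41b, Egfr and Ttr. Signs of single called intervals were not compared between runs. On HFD, 795 intervals were called in all, 304 to 1189 with 1 liver left out, and 1883 without LKO 1 and flox 3 together, a pair chosen after seeing the data. The 32 called Cyp2b intervals became 12 (without LKO 3) to 42 (without flox 3), 15 without LKO 4, flox 2 or flox 4, and 52 without the pair. HFD gene sums gave 56 calls, 124 with DESeq2, 321 without the pair and 17 to 196 with 1 liver left out. On chow, 20 called intervals became 544 with DESeq2, 677 with limma, 333 without both shallow libraries (chosen after seeing the data) and 0 to 604 with 1 liver left out; for Cyp2b intervals, 0 became 2, 3, 2 and 0 to 5, and for gene sums, 0 became 38, 1, 7 and 0 to 22, in the same order. For the difference between diets, 135 calls became 396 with limma and 82 to 370 with 1 liver left out, and the 5 at Cyp2b became 12 with limma, 2 at 80% overlap and 1 to 14. Of 121 log2 fold changes of Cyp2b gene sums under alternatives, 113 moved by less than 1 SE.

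The replicate block gave 1420 HFD intervals, 46 of them at Cyp2b, and 351 gene sums. Same-numbered HFD livers deviated together with correlations of 0.0682, 0.131, 0.181 and -0.0137. Such low values cannot decide whether the numbers are a pairing, so the block served only as an alternative. No paired analysis was possible on chow or between diets because the chow columns carry no label of a single sample. The calls of Sult2a1, Cyp3a41a, Cyp3a41b, Egfr and Ttr were kept in all 17 alternatives, and those of Cyp2a5 and Cyp2a12 were lost in 7 and 8. Reads per Cyp2b interval and library were as low as 4 on HFD and 25 on chow, which limits single weak intervals.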
